A study of Mus musculus with 23 samples.

Results

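Among 23 RNA-seq libraries of mouse embryonic stem cells, 4 carried raised levels of genes from chromosome 8. They are the libraries numbered replicate 1 in each of the 4 groups with wild type ERF, an ETS-family repressor of transcription that leaves the nucleus when ERK phosphorylates it. They were set against the 7 libraries numbered 2 or 3 of the same groups, each within its own group, and the 12 ERF knockout libraries served as a further reference. The 4 libraries were chosen because their chromosome 8 genes were high, so every difference between them and the 7 others is given as a description, without a test. What was tested is whether that difference changed with medium or RAS state. The labels give the same replicate number to the 4 libraries but do not say that they came from 1 culture, and they do not say whether replicates were separate cultures.

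All 11 ERF wild type libraries came from cells with Hras and Nras disrupted, the remaining RAS gene flanked by loxP sites, and a CreERT2 recombinase driven by a ubiquitin promoter (Ubiq-CreERT2). The group with RAS present in 2iL (3 libraries) received no tamoxifen. The medium 2iL is serum-free N2B27 with an inhibitor of MEK (PD0325901), an inhibitor of GSK3 (CHIR99021) and LIF, and it holds the cells in the naive state of pluripotency. The group with RAS deleted in 2iL (3 libraries) was given 4-hydroxytamoxifen for 6 days. The 2 groups in FA, with RAS present (2 libraries) and RAS deleted (3 libraries), were moved for 48 h to N2B27 with FGF2, Activin A and a low level of serum replacement on fibronectin, which drives cells towards the primed state of the epiblast. Every RAS-deleted library was treated with tamoxifen, so drug and deletion cannot be told apart. The labels do not say whether the line is 1 clone. The 12 ERF knockout libraries, 3 per combination of medium and RAS state, carry the same RAS alleles.

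Pluripotent stem cells are prone to gain whole chromosomes during long culture, and in mouse embryonic stem cells chromosome 8 is among those gained most often. Cells with an additional copy of a chromosome usually make more RNA from most of its genes, and the protein products of such genes are often held back when their partners in a complex are not in surplus. Copy number was not measured in these data, so a gain of chromosome 8 in these cells was not tested.

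In the 11 ERF wild type libraries, totals ran from 17.2 to 29.9 M estimated counts, and the predicted gene Gm26917 took 17.6 to 26.6% of them. Chromosome 8 held 989 of the 19392 genes that passed the filter on low counts, out of 2477 gene rows placed on it. Levels are in CPM, counts scaled to a common library size by TMM, a method that corrects for differences in composition. The fitted difference of a gene is the log2 ratio of the libraries numbered 1 to the others from 1 model with a level for each group. Defining markers of embryonic stem cells were present in every library. With both RAS states of a medium pooled, they summed to 2351 to 2387 CPM in the libraries numbered 1 in 2iL against 2343 to 2596 in the others. In FA the sums were 1068 to 2546 against 1130 to 2216.

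Most genes of chromosome 8 were higher in the libraries numbered 1, and by a similar amount. The median fitted difference was 0.34 on the log2 scale, or 1.27-fold, and 901 of 989 genes (91.1%) lay above 0. By group, the median was 0.32 in 2iL with RAS present and 0.28 with RAS deleted, and 0.30 in FA with RAS present and 0.28 with RAS deleted. The middle of the distribution was narrow, with a lower quartile of 0.21 and an upper quartile of 0.46. The share of all CPM that came from chromosome 8 was 3.79, 3.68, 4.10 and 3.79% in the libraries numbered 1, in the order of groups above, and 2.98 to 3.28% in the 7 others. With Gm26917 left out, it was 4.89 to 5.24% against 3.98 to 4.04%. The 2 sets of libraries did not overlap on either measure.

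**Figure D1:**
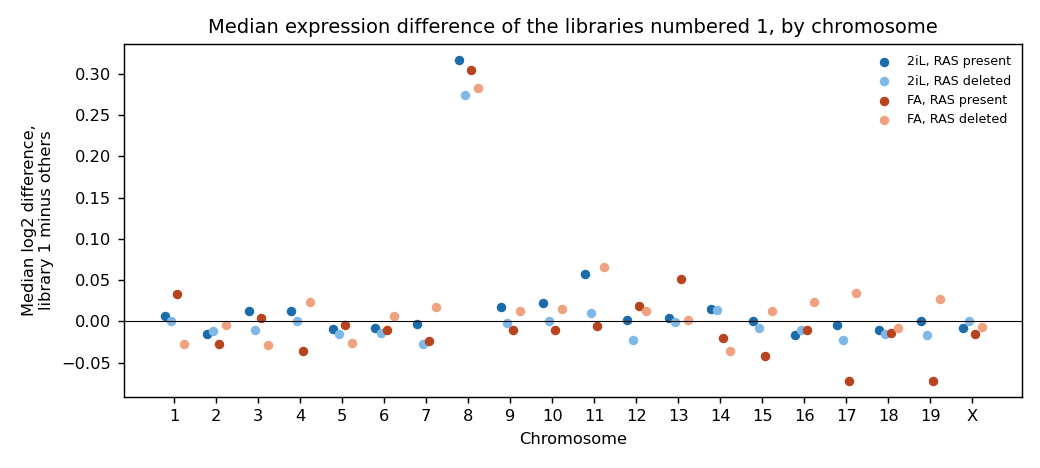
Median log2 difference between the library numbered 1 and the others of its group, over the tested genes of each chromosome from 1 to 19 and X, with 1 point per group. The 4 points of chromosome 8 lie between 0.275 and 0.317, and all points of the other chromosomes shown lie between -0.072 and 0.066.

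No other chromosome from 1 to 19, nor X, had a median fitted difference outside -0.02 to 0.04. The highest of them was chromosome 11, at 0.04. Over the 18302 tested genes placed elsewhere, the median was 0.00 and 48.9% lay above 0. In 452 chromosome 8 genes (45.7%) the library numbered 1 was above all others of its group in all 4 groups, against a background of 6.15% of all tested genes. It was above in 3 groups for 258 genes, in 2 for 170, in 1 for 95 and in none for 14. The opposite pattern, below in all 4 groups, was met by 1 chromosome 8 gene, Mt2, with a background of 3.96%.

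The shift ran along the whole chromosome. In windows of 10 Mb with at least 20 tested genes, all 13 windows on chromosome 8 had a positive median in each of the 4 groups, with fitted medians from 0.25 to 0.37. The 234 windows elsewhere had medians from -0.15 to 0.17, and 0 of them reached the lowest window of chromosome 8. Of those 234, 14 were positive in all 4 groups and 22 negative in all 4. There was no stretch of chromosome 8 at this scale in which the genes as a group lay at the level of the other chromosomes.

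**Figure D2:**
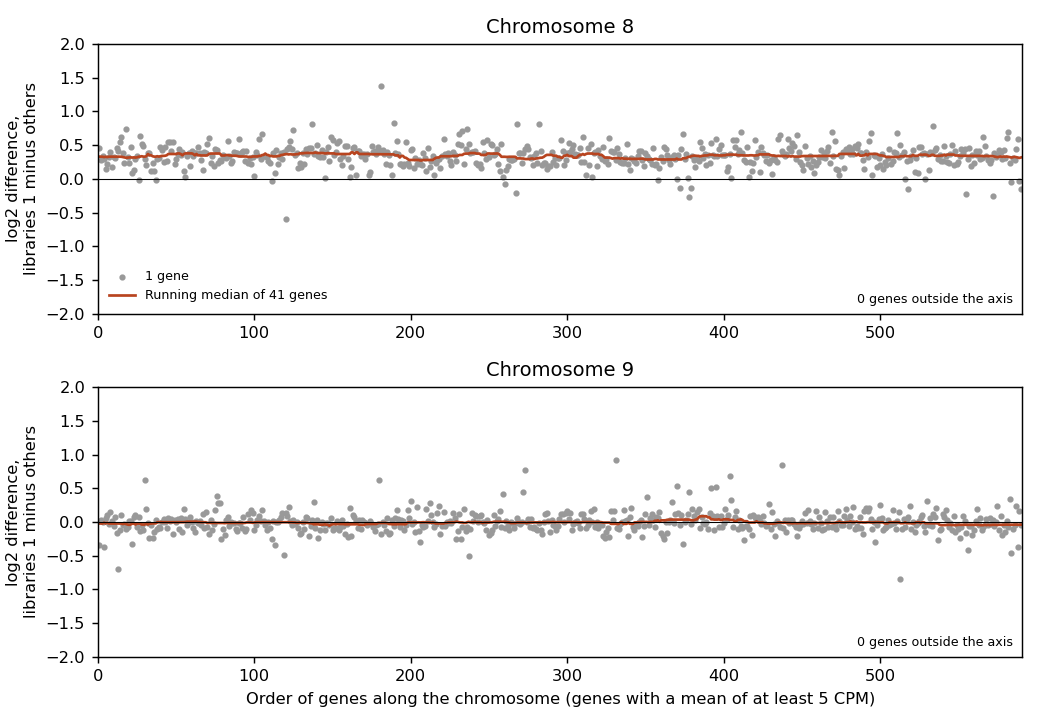
Fitted log2 difference of each gene with a mean of at least 5 CPM, in gene order along chromosome 8 (top, 590 genes) and chromosome 9 (bottom, for comparison), with a running median over 41 genes. The running median of chromosome 8 stays above 0 from one end to the other, and that of chromosome 9 stays near 0.

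The fitted shift had a similar median at low and high levels of expression, but it was less even between groups for low genes. With the chromosome 8 genes split by mean level into 3 sets of equal size, those up to 2.34 CPM had a median difference of 0.34, those in the middle also 0.34, and those above 26.6 CPM 0.35. By group, in the order above, the medians were 0.25, 0.13, 0.25 and 0.05 in the lowest set and 0.33, 0.31, 0.34 and 0.36 in the highest. In the 3 sets 80.0%, 95.4% and 97.9% of the genes lay above 0, and 15.2%, 48.0% and 73.9% were above in all 4 groups. Counting error is larger for low genes, and its part in this trend was not tested. Among classes of gene, 776 protein-coding genes had a median of 0.35, 102 long noncoding RNAs 0.24 and 37 pseudogenes 0.36. The long noncoding RNAs varied by group, with a median of 0.41 in FA with RAS present and -0.08 in FA with RAS deleted, where 43.1% lay above 0. The pseudogenes had lower medians in the single groups than in the fit, at 0.24 and 0.14 in 2iL and 0.14 and 0.08 in FA. Over the 590 genes with a mean of at least 5 CPM the median was 0.34, with 96.8% above 0.

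**Figure D3:**
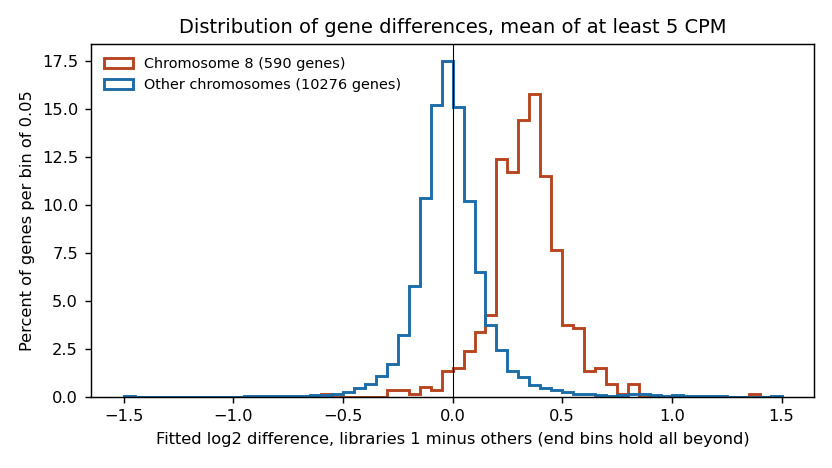
Distribution of the fitted log2 differences of genes with a mean of at least 5 CPM, as the percent of genes per bin of 0.05, for chromosome 8 (590 genes) and the other chromosomes (10276 genes). The chromosome 8 distribution is shifted as a whole, with medians of 0.342 and -0.019.

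Regulators of pluripotency and of growth factor signalling on chromosome 8 followed the chromosome: 17 of 18 lay above 0, with a median of 0.34, and 7 were above in all 4 groups, close to the 91.1% and 45.7% of all chromosome 8 genes. Klf2 (GRCm38 chr8:72319033-72321656), a Kruppel-like factor of the naive state, had one of the largest differences. It was at 153 CPM in the library numbered 1 against 109 and 115 in 2iL with RAS present, and at 179 against 122 and 111 with RAS deleted. In FA it was at 27.7 against 15.3 with RAS present, and at 224 against 103 and 80.1 with RAS deleted. The library numbered 1 was the highest of each group, and the fitted difference was 0.81 (SE 0.12), with single-group differences from 0.45 in 2iL with RAS present to 1.30 in FA with RAS deleted.

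Fgfr1, a receptor for the FGF2 of the FA medium, had a fitted difference of 0.38 (SE 0.05). It was at 155 CPM against 107 and 110 in 2iL with RAS present, at 142 against 110 and 113 in 2iL with RAS deleted, at 167 against 140 in FA with RAS present, and at 277 against 205 and 220 in FA with RAS deleted. The groups did not overlap within any condition. The insulin receptor Insr (0.46), the catalytic subunit of protein kinase A Prkaca (0.45) and the BMP effector Smad1 (0.31) were also above in all 4 groups. Zfp42 (Rex1), a marker of naive cells, was at 262 CPM against 272 and 286 in 2iL with RAS present and above the others in the 3 further groups (fitted difference 0.33, SE 0.11). Irs2, an adaptor of insulin signalling, was the member of this list below 0, at -0.02 (SE 0.08).

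Among 15 tested genes of DNA replication, repair and cell death, all 15 lay above 0 with a median of 0.38, and 14 were above in all 4 groups. Over chromosome 8 as a whole these shares were 91.1% and 45.7%, and 97.9% and 73.9% for its genes above 26.6 CPM. Gins2, a subunit of the GINS complex of the replicative helicase, was at 37.7, 32.6, 49.2 and 38.0 CPM in the libraries numbered 1 and between 24.3 and 37.4 CPM in the 7 others (fitted difference 0.43, SE 0.07). It was the highest in the library numbered 1 of each group.

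Genes of chromatin and transcription on the chromosome gave a median of 0.28 over 24 tested members of 27, with 23 above 0 and 12 above in all 4 groups, beside 45.7% of all chromosome 8 genes. The histone methyltransferase Nsd3 (0.38, SE 0.07) and the histone acetyltransferase Kat6a (0.26, SE 0.05) were above in all 4. Ctcf, which anchors chromatin loops, differed less: it was at 108 CPM against 109 and 103 in 2iL with RAS present and at 130 against 121 and 136 in FA with RAS deleted, inside the range of the others in both, with a fitted difference of 0.10 (SE 0.06). Among chromosome 8 genes above 26.6 CPM, the share above in all 4 groups was 73.9%. Of 26 genes of metabolism, stress and trafficking, 24 lay above 0 with a median of 0.35, and 20 were above in all 4 groups, beside the same 45.7% and 73.9%. They include the cytochrome c oxidase subunit Cox4i1 (0.31, SE 0.06), the complex I subunit Ndufb7 (0.50, SE 0.07), the endoplasmic reticulum chaperone Calr (0.40, SE 0.06) and the lysosomal membrane protein Lamp1 (0.47, SE 0.07).

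Adhesion and cytoskeleton genes had a median of 0.29 over 11 tested members of 14, with 10 above 0 and 3 above in all 4 groups, beside 91.1% and 45.7% of all chromosome 8 genes. Cdh1 (GRCm38 chr8:106603351-106670246), the E-cadherin that joins stem cells in colonies, was at 569 CPM against 336 and 328 in 2iL with RAS present and at 507 against 338 and 353 with RAS deleted. The FA levels were 365 against 276 with RAS present and 327 against 195 and 186 with RAS deleted. Its library numbered 1 stood above the others in each group, and its fitted difference of 0.64 (SE 0.06) exceeded the chromosome's median. Fat1, an atypical cadherin, was at 724 CPM in FA with RAS deleted against 838 and 1077, and its fitted difference was 0.01 (SE 0.10). Tubb3, the neuronal tubulin, lay at -0.22 (SE 0.15), with the library numbered 1 below the others in 3 groups.

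**Figure D4:**
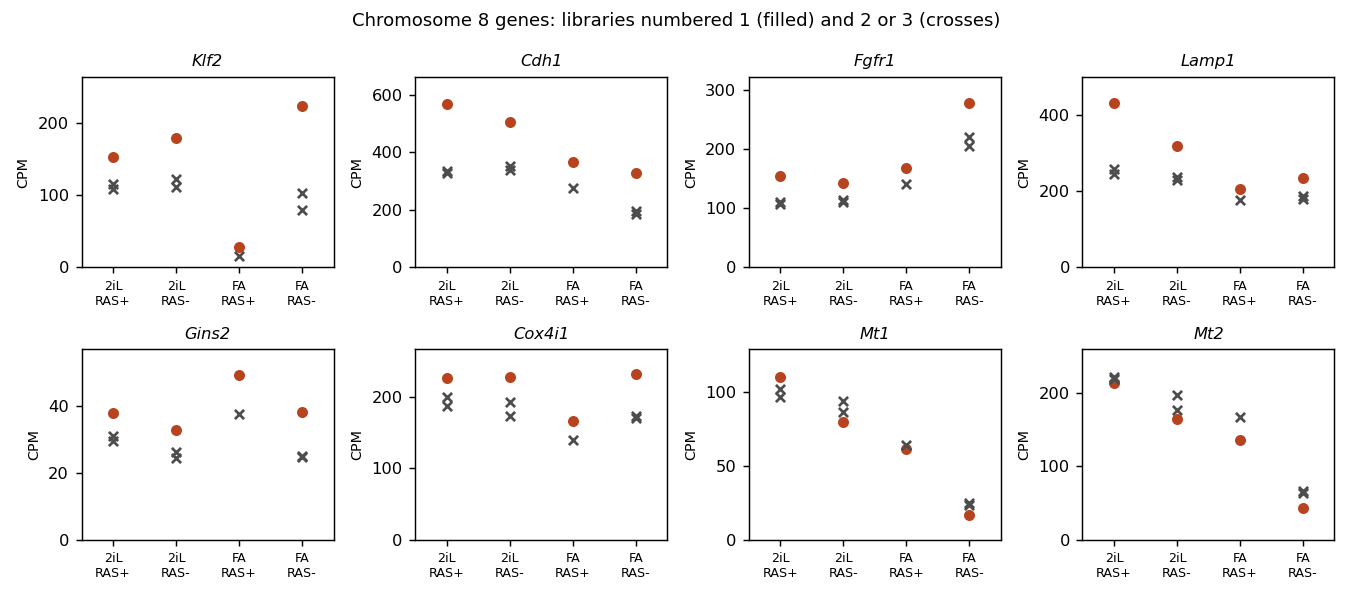
CPM of 8 chromosome 8 genes in each ERF wild type library, by medium (2iL or FA) and RAS state (RAS+ present, RAS- deleted). Filled points are the libraries numbered 1 and crosses the libraries numbered 2 or 3. The filled point is the highest of each group for Klf2, Cdh1, Fgfr1, Lamp1, Gins2 and Cox4i1, and the lowest of each group for Mt2.

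The 10 largest differences on chromosome 8 among genes with a mean of at least 5 CPM, predicted genes passed over, were those of Cpe, Sh2d4a, Slc7a2, Klf2, Cyba, Ccl25, Arrdc2, Ppp1r3b, Ifi30 and Kcnk1, from 1.38 down to 0.70. Cpe (GRCm38 chr8:64592542-64693054), the carboxypeptidase E that trims peptide hormones, was at 13.8 CPM against 3.88 and 3.67 in 2iL with RAS present and at 6.55 against 2.51 and 2.10 with RAS deleted. In FA it was at 14.1 against 8.02 with RAS present and at 5.93 against 2.77 and 2.34 with RAS deleted. Its difference of 1.38 (SE 0.15) was well beyond that of the next gene, Sh2d4a (0.83, SE 0.18). In all 10 genes the library numbered 1 was the highest of each group. Among all chromosome 8 genes, 12 were above in all 4 groups with a difference of at least 2-fold and 0 were below by as much, against a background of 0.691% and 0.103% of tested genes.

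The metallothioneins Mt1 and Mt2, small proteins that bind zinc and copper, are neighbours on chromosome 8 and did not share its shift. Mt2 was at 213 CPM in the library numbered 1 against 221 and 218 in 2iL with RAS present, and at 164 against 177 and 197 with RAS deleted. In FA it was at 135 against 167 with RAS present and at 43.4 against 63.7 and 66.6 with RAS deleted. The library numbered 1 was the lowest of each group, with a fitted difference of -0.27 (SE 0.08). Mt1 was lowest in the library numbered 1 in 3 groups and highest in 2iL with RAS present, at 110 CPM against 102 and 96.7, with a fitted difference of -0.13 (SE 0.09). The 2 genes are known to be induced by zinc through metal response elements bound by the factor MTF1, so the sequences before their starts are shown, from RefSeq on GRCm38.p6, as the 250 bases upstream of each annotated start (plus strand, Mt1 chr8:94178839-94179088 and Mt2 chr8:94172368-94172617). Capitals mark matches on either strand to the core of that element, searched as TGCACNC and TGCGCNC.
Mt1: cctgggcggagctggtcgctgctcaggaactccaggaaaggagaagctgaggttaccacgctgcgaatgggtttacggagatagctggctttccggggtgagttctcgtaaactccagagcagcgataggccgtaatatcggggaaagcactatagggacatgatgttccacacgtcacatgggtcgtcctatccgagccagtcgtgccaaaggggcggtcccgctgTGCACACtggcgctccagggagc
Mt2: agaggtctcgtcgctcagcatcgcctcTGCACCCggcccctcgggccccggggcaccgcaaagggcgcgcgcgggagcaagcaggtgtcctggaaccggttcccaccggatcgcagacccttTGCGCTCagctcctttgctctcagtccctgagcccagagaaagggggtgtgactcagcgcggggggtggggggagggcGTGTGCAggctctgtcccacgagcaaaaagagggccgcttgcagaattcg
The Mt1 window held 1 match and the Mt2 window 3, in a search where 21.4% of 32851 such windows of all genes in the table held at least 1 and 1.26% at least 3. A match is a description of the letters and not evidence of binding. GENCODE also lists Mt1 transcripts that start at 94179211 and 94179241 and an Mt2 transcript that starts at 94172860, all downstream of these windows, so elements nearer to those starts lie outside them.

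The other genes with the smallest differences in that ranking were Trim67 (-0.26, SE 0.33), Tubb3, Irx3 (-0.13, SE 0.26), Zfp882, Irf2bp2 (-0.05, SE 0.08), Fut10, Mcf2l and Irs2. Trim67 and Irx3 varied between groups: Irx3, a homeobox factor, was at 5.73 CPM against 3.70 and 2.73 in 2iL with RAS present and at 5.08 against 8.51 and 12.2 in FA with RAS deleted. Both genes lay above the others in the first of these groups and below them in the second.

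In complexes with subunits on several chromosomes, those encoded on chromosome 8 had fitted medians like that of the chromosome, and those encoded elsewhere lay lower. Of the MCM and GINS proteins, with the helicase partner Cdc45, 4 genes on chromosome 8 (Mcm5, Gins2, Gins3 and Gins4) had a median of 0.38, with all 4 above 0. The 7 members encoded elsewhere had a median of -0.09, with 1 above 0, and Mcm7 was below the others in all 4 groups (-0.20, SE 0.07). By group, the medians were 0.24, 0.32, 0.45 and 0.47 on chromosome 8 and -0.29, -0.08, 0.08 and -0.01 elsewhere, in the order 2iL with RAS present and deleted, then FA with RAS present and deleted. In the proteasome, Psmd7 of chromosome 8 was at 0.32 (SE 0.06), and the 30 subunits encoded elsewhere had a median of -0.04, with a highest value of 0.08. In oxidative phosphorylation, 3 subunits on chromosome 8 had a median of 0.32 and 41 elsewhere 0.01, with a highest value of 0.15. The group medians of those 41 were 0.00 and 0.03 in 2iL, and -0.19 and 0.13 in FA. The lists set these subunits side by side, and no test of the difference was made because the libraries were chosen on chromosome 8.

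Outside chromosome 8, a smaller share of genes set the libraries numbered 1 apart, in both directions. The library numbered 1 was above the others in all 4 groups for 740 of 18302 genes (4.04%) and below in all 4 for 765 (4.18%). With a difference of at least 2-fold required, 141 genes were left, most of them higher (121 higher and 20 lower), against a background of 0.794% of all tested genes. Of the 121, 63 were predicted genes or pseudogenes and 55 had a mean under 1 CPM. The count rests on few libraries. It was 238 without the library numbered 1 in 2iL with RAS present, 232 without that in 2iL with RAS deleted and 116 without that in FA with RAS deleted. It was 223 without either library in FA with RAS present. Each of these removes a group, so a gene had to be apart in fewer groups, which is a looser rule.

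Among genes elsewhere that were apart in all 4 groups and had a mean of at least 5 CPM in the higher set of libraries, with predicted genes passed over, the 10 largest differences upward were those of Lgals9, Npr3, Zscan4d, Myh13, Usp17lb, Zscan4e, Usp17le, Ttll3, Olfr1459 and Zscan4f, from 1.70 down to 1.03. Lgals9 (GRCm38 chr11:78962974-78984946), which encodes the secreted lectin galectin 9, was at 4.48 CPM against 1.52 and 1.13 in 2iL with RAS present and at 4.11 against 0.818 and 1.37 with RAS deleted. Its FA levels were 8.32 against 4.67 with RAS present and 5.08 against 1.10 and 1.08 with RAS deleted, and its fitted difference was 1.70 (SE 0.21). Npr3 (GRCm38 chr15:11839896-11907287), the clearance receptor for natriuretic peptides, was at 35.3 CPM against 19.5 and 17.8, at 31.5 against 13.5 and 13.7, at 1.31 against 0.933, and at 39.2 against 14.3 and 13.9 in the same order of groups (fitted difference 1.16, SE 0.10). Both genes were highest in the library numbered 1 of each group, and Npr3 was near 1 CPM in FA with RAS present in both libraries. Nes (GRCm38 chr3:87971078-87980451), the intermediate filament nestin of neural progenitors, was at 60.5 CPM against 30.0 and 28.5, at 53.6 against 31.7 and 31.6, at 26.5 against 13.7, and at 56.7 against 23.1 and 22.6 (fitted difference 1.03, SE 0.08).

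Several of these genes belong to the set that marks two-cell-like cells, a rare state in stem cell cultures in which genes of the early cleavage embryo are active. Of 9 tested genes on that list, 8 lay above 0 with a median of 0.90, and 6 were above in all 4 groups, as were 4.04% of all genes outside chromosome 8. Zscan4d (GRCm38 chr7:11161374-11166159), a DNA-binding factor of that state, was at 2.53 CPM against 1.21 and 2.02 in 2iL with RAS present and at 12.6 against 7.77 and 8.02 with RAS deleted. Its FA levels were 9.31 against 3.27 with RAS present and 58.3 against 24.5 and 13.8 with RAS deleted. The libraries numbered 1 were the highest in each group, and the level was higher in the RAS-deleted libraries of each medium than in their RAS-present counterparts. By group, the list's median was 0.54 in 2iL with RAS present, 0.50 with RAS deleted, 0.77 in FA with RAS present and 1.49 with RAS deleted. Zscan4, Usp17l and Tcstv genes are families of near-identical copies, among which the quantifier splits reads, so values of single copies are uncertain, and 10 of the 121 genes above belong to these 3 families. In these bulk libraries, more cells in a state and more RNA per cell cannot be told apart, nor can fewer cells and less RNA.

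**Figure D5:**
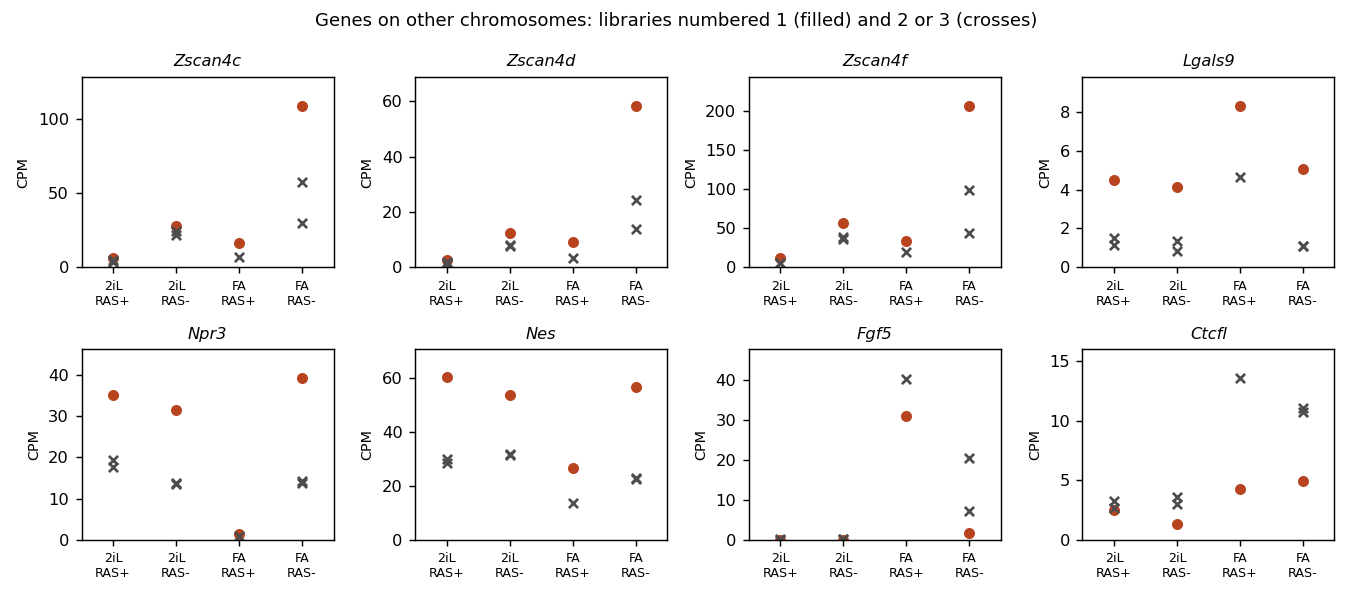
CPM of 8 genes on other chromosomes in each ERF wild type library, by medium and RAS state (RAS+ present, RAS- deleted), with the libraries numbered 1 as filled points and those numbered 2 or 3 as crosses. The filled point is the highest of each group for the Zscan4 genes, Lgals9, Npr3 and Nes, and the lowest of each group for Fgf5 and Ctcfl.

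By the same rule, the 10 largest differences downward were those of Fgf5, Ctcfl, Cnn2, Fgfbp1, Sulf1, Dtna, Etv1, Slit3, Pde3a and Pla2g1b. Only the first 2 of them reached 2-fold. Fgf5 (GRCm38 chr5:98254184-98277030), a growth factor of the primed epiblast, was under 0.2 CPM in every 2iL library. In FA it was at 31.0 CPM against 40.4 with RAS present and at 1.74 against 7.17 and 20.6 with RAS deleted, and its fitted difference was -1.52 (SE 0.63). The gap was thus mainly in FA with RAS deleted, where the 2 other libraries also differed from each other. Ctcfl, a germline paralog of Ctcf (GRCm38 chr2:173093609-173119525), was at 2.53 CPM against 3.27 and 2.68, at 1.30 against 3.63 and 3.03, at 4.25 against 13.6, and at 4.91 against 11.1 and 10.7 (fitted difference -1.08, SE 0.20).

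Genes of the primed state were mostly lower in the libraries numbered 1: 13 of 16 tested members lay below 0 with a median of -0.39, and 3 (Fgf5, Dnmt3b and Etv5) were below in all 4 groups, as were 4.18% of all genes outside chromosome 8, of which 48.9% lay above 0. By group the median was -0.06 and -0.14 in 2iL with RAS present and deleted, -0.09 in FA with RAS present and -0.84 in FA with RAS deleted. Dnmt3b, a DNA methyltransferase, was at 63.1 CPM against 105 and 188 in that last group and at 442 against 456 in FA with RAS present. Naive genes had a median of 0.10, with 10 of 17 above 0. Their group medians were -0.09 and -0.13 in 2iL with RAS present and deleted, and 0.10 and 0.46 in FA. The 15 of them encoded outside chromosome 8 had a median of 0.03, and 0 of those 15 were above in all 4 groups. Genes of general pluripotency had a median of -0.16, with 4 of 6 below 0. Their group medians were -0.19 and -0.06 in 2iL with RAS present and deleted, and -0.16 and -0.15 in FA. Germ layer genes had a median of 0.08 over 10 tested members, with 6 above 0.

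Targets of ERK signalling had a median of 0.06 over 18 tested members, with 10 above 0, and group medians of 0.02 and 0.02 in 2iL with RAS present and deleted, and 0.21 and -0.28 in FA. Etv1, Etv5 and Dusp6, a pair of ETS factors and a phosphatase, were below in all 4 groups (-0.79, -0.29 and -0.59), and Egr1 and Ier3, immediate early genes, were above in all 4 (1.19 and 0.29), beside 3.96% of all tested genes below and 6.15% above. Egr1 was a low gene, with a mean under 5 CPM both in the libraries numbered 1 and in the others. Dusp6 was at 6.01 CPM against 8.36 and 9.36, at 5.25 against 8.95 and 9.25, at 140 against 152, and at 12.5 against 21.4 and 25.5. The list thus held members on both sides. Targets of p53 had a median of -0.04, with 5 of 18 above 0, and genes of the integrated stress response a median of -0.04, with 6 of 18 above 0. By group, the p53 targets had medians of 0.12 and -0.07 in 2iL with RAS present and deleted, and -0.25 and -0.02 in FA. The stress response genes were uneven, with medians of -0.07 and 0.16 in 2iL with RAS present and deleted, and -0.68 and 0.24 in FA. No member of the p53 or stress response list lay outside the others in 1 direction in all 4 groups. Heat shock chaperones encoded outside chromosome 8 had a median of 0.03, with 9 of 16 above 0.

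Markers of other cell types were compared as summed levels by medium, with RAS-present and RAS-deleted libraries pooled. The ranges of these sums therefore do not show a difference within a group. The summed fibroblast markers, which would mark feeder cells, were at 7.41 to 8.17 CPM in 2iL against 5.76 to 6.60 and at 6.06 to 29.6 in FA against 5.05 to 14.5, with Col3a1, Lum and Postn under the filter. Primitive endoderm markers summed to 107 to 134 CPM in 2iL against 108 to 133, and in FA to 220 to 537 against 139 to 287. Of the 8 markers, 6 lay above 0 and 2 below, down to -0.24 for Sox7. Among the 6, the endoderm factors Sox17 (1.08, SE 0.22) and Gata6 (0.72, SE 0.15) were above in all 4 groups, as was the basement membrane collagen Col4a1 of chromosome 8 (0.64, SE 0.12), beside 4.04% of all genes outside chromosome 8 and 45.7% on it. Sox17 had a mean under 5 CPM both in the libraries numbered 1 and in the others. Neural markers summed to 69.9 to 80.4 CPM in 2iL against 48.1 to 50.6, of which Nes alone gave 53.6 to 60.5. Of the 5 tested neural markers 3 lay below 0, with a median of -0.22, and Pax6 was below in all 4 groups (-0.64, SE 0.22), as were 4.18% of all genes outside chromosome 8. In FA the neural sums overlapped, at 93.8 to 105 against 75.0 to 95.8. Trophoblast markers were at 118 to 128 CPM in 2iL against 125 to 137, and at 52.9 to 82.8 in FA against 66.5 to 81.8. The part of these cell types in the differences above was not tested.

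Whether the difference of the libraries numbered 1 depended on medium or RAS state was tested with edgeR's quasi-likelihood test of an interaction over all genes. Calls here and below needed 2-fold or more and a p under 0.05 after Benjamini-Hochberg adjustment. The test called 0 genes for medium and 0 for RAS state (0% of 19392 each), with 1709 and 1511 genes at an unadjusted p under 0.05. DESeq2 called 31 and 4. A count of 0 here does not show that the differences were the same in the groups compared. The median change of the difference on chromosome 8 was 0.00 between FA and 2iL and -0.05 between RAS deleted and present. The count for medium was 81 without the library numbered 1 in FA with RAS present, 252 without that in FA with RAS deleted and 95 without the library numbered 2 in FA with RAS present. For RAS state it was 116 without the library numbered 1 in 2iL with RAS present 13 without that in 2iL with RAS deleted, 1 without either library in FA with RAS present and 2 without the library numbered 2 in FA with RAS deleted.

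The study's own comparisons were then made with and without the 4 libraries. Deletion of RAS in 2iL called 62 genes with all 11 libraries (0.32% of those tested), of which 4 lay on chromosome 8. With the replicate number as a block, since same-numbered libraries deviated together in this comparison, it called 215 (1.11%), 12 of them on chromosome 8. Without the 4 libraries it called 159 (0.8%), and 46 genes were shared with the first set. The count was 14 to 18 without any 1 of the 2iL libraries other than number 3 with RAS present, and 200, 33 and 167 without the FA libraries with RAS deleted numbered 1, 2 and 3. On chromosome 8, 4 genes were again called, of which 1 was shared. Sox1, a transcription factor of early neural cells on chromosome 8, shows how the libraries numbered 1 enter: in 2iL with RAS present it was at 13.1 CPM in the library numbered 1 against 8.30 and 8.14, and with RAS deleted at 4.00 against 5.17 and 4.99. Its change with deletion was -1.07 (SE 0.19, edgeR adjusted p = 0.0241) with all libraries and -0.69 (adjusted p = 0.0259) without the 4, which is under the 2-fold limit.

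Deletion of RAS in FA called 3152 genes (16.3%), and 151 of 989 on chromosome 8 (15.3%), 49 higher and 102 lower. There the libraries numbered 1 make up 1 of 2 RAS-present and 1 of 3 RAS-deleted libraries, and the median change over chromosome 8 genes was -0.16, against 0.03 elsewhere. Without them, 1 RAS-present library was left in FA, so calls of that fit are not counted. The median change was then -0.09, against 0.02 elsewhere. Over all genes, with all libraries, the split was 1733 higher and 1419 lower. The share of genes called was thus close on chromosome 8 and over the whole, and more chromosome 8 genes were called lower than higher. Zfp42 rose with deletion by 3.66 on the log2 scale (SE 0.25, edgeR adjusted p = 1.23e-06), from a mean of 29.1 to 369 CPM, and by 3.93 without the 4 libraries. Snx20, a sorting nexin at 0.218 and 0.327 CPM in the 2 RAS-present libraries in FA and 4.40 to 7.63 in the RAS-deleted ones, rose by 4.34 (SE 0.36, adjusted p = 1.79e-06) and by 3.72 without them.

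FA against 2iL called 4408 genes with RAS present (22.7%), 230 of them on chromosome 8 (143 higher, 87 lower). The median change over chromosome 8 genes was 0.077, and 0.055 without the 4 libraries. Calls of the latter fit are not counted, because 1 library in FA with RAS present was left. With RAS deleted, FA against 2iL called 3046 (15.7%), 150 on chromosome 8 (86 higher, 64 lower), and 3459 (17.4%) without the 4 libraries, 175 on chromosome 8. Trim67, a ubiquitin ligase of the tripartite motif family, rose in FA by 7.0 with RAS present (SE 0.48, edgeR adjusted p = 9.94e-07), from 0.370 to 50.8 CPM, and by 5.73 with RAS deleted (SE 0.49, adjusted p = 8.97e-06). B3gnt3, a glycosyltransferase, fell in FA with RAS deleted by 3.51 (SE 0.31, adjusted p = 3.8e-06), from 7.54 to 0.662 CPM. These changes were of many times the size of the chromosome 8 shift, and each kept its direction without the 4 libraries.

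The ERF knockout libraries were not used in the choice. Measured against the mean of the libraries numbered 2 and 3 of the ERF wild type group with the same medium and RAS state, the median of chromosome 8 genes was between -0.04 and 0.07 in the 12 knockout libraries. On the same scale, it was 0.31, 0.27, 0.27 and 0.26 in the 4 ERF wild type libraries numbered 1, so the 2 sets did not overlap. Within the knockout groups, the libraries numbered 1 differed from those numbered 2 and 3 by a mean of 0.02 (SD 0.02 over 4 groups, higher in 4 of 4). A two-sided exact permutation test over the 81 ways to pick 1 library per group gave p = 0.0617, where the smallest p it allows is 0.0123. The mean over genes in place of the median gave 0.02 with an exact permutation p = 0.0123, and DESeq2 size factors gave 0.02 with p = 0.0494. That test takes the groups as independent, and the numbers may not be. On chromosome 11, the knockout libraries numbered 1 were at 0.14 in 2iL with RAS present, 0.08 in 2iL with RAS deleted, 0.11 in FA with RAS present and 0.06 in FA with RAS deleted, as medians of deviations from the others of their group, and the 8 others were between -0.07 and -0.02. With numbers kept together across groups there are 3 assignments and no p can be under 0.333, so no difference on chromosome 8 is called in the knockout libraries. The size of the chromosome 8 difference was far below that in the ERF wild type libraries in each case.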

How the data were processed

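RNA was sequenced from 23 libraries of mouse embryonic stem cells. Strand-specific libraries of rRNA-depleted RNA were read as 75 bp pairs, per the labels' protocols. The authors deposited estimated counts per gene symbol for each library, in the columns Salmon writes, per the file headers. The submitters' processing notes name bcl2fastq 2.20.0, fastp 0.20.0, Salmon and the mm10 build. The version of Salmon and the transcriptome are not given in the sources used here. Salmon shares reads among similar transcripts, so close paralogs and overlapping genes are less certain.

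The estimated counts were rounded. Of 53607 gene symbols, 53051 were placed with GENCODE M21 (GRCm38). edgeR 4.0.16 in R 4.3.3 was used on the 11 ERF wild type libraries: filterByExpr, TMM, and robust quasi-likelihood fits with a coefficient per group, plus 1 for number 1 and its interaction with medium or RAS state. Single-group differences used log2 of CPM plus 0.5. Standard errors are the absolute log2 change divided by the square root of F. DESeq2 1.42.0 was an alternative. The fits were tested on simulated data. With 2 or 3 libraries per group, which may not be separate cultures, p-values measure the spread between these libraries. Without the libraries numbered 1, the group in FA with RAS present is 1 library.

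The libraries, gene lists, naming rule and tests were chosen with earlier results of these data known. Named genes are members of the lists, the 10 largest and smallest chromosome 8 differences at 5 CPM or more, the 10 largest each way elsewhere among genes apart in all 4 groups with 5 CPM or more in the higher set, predicted genes passed over, and the 3 largest called changes each way per contrast on chromosome 8, of which some are given. Those with a group mean under 0.1 CPM are not given. Same-numbered libraries were compared by the correlation of their deviations from group means: in 2iL, RAS present and deleted correlated at 0.34, 0.13 and 0.19 for numbers 1, 2 and 3, so the numbers were taken to pair those libraries. In the other contrasts at least 1 pair was under 0.1. Some genes, a targeted one among them, are not reported here.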

Additional observations from a re-analysis of the deposited data

How the results depend on the processing

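The median chromosome 8 difference of 0.34 was positive under every alternative tried: 0.321 with DESeq2 size factors, 0.313 with no filter on low counts and 0.305 in FA alone. Leaving out 1 library gave 0.302 to 0.349, and 443 to 517 chromosome 8 genes above in all groups left. Leaving out a library numbered 1 removes its group from these counts. The 141 genes apart by 2-fold elsewhere became 298 with no filter, 485 in FA alone (2 groups) and 408 at a minimum of 1.5-fold, and ran from 114 to 238 without 1 library. The 62 calls for RAS deletion in 2iL became 499 with no filter, 215 with the replicate block, 159 without the 4 libraries numbered 1 and 224 with DESeq2, which gave no adjusted p for 1506 genes. They ran from 14 to 200 without 1 library, passing a 1.5-fold change of the count for all but 3 of the 11, so this count is not stable. Its chromosome 8 part, 4 genes, became 26 with no filter, 12 with the block and 9 with DESeq2, and 2 to 11 without 1 library. The cause was not tested.

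Calls without 1 library ran from 2858 to 3217 for RAS deletion in FA (137 to 155 on chromosome 8). They ran from 4130 to 4481 for FA against 2iL with RAS present (207 to 236). Fits that leave 1 library in FA with RAS present are not counted in these. For FA against 2iL with RAS deleted the calls ran from 2577 to 3378 (126 to 181). With the replicate block these 3 contrasts called 3265, 4564 and 3139 genes. The interaction with medium went from 0 to 197 with no filter and 31 with DESeq2, and 0 to 252 without 1 library. That with RAS state went to 157 and 4, and 0 to 116. In the ERF knockout libraries, number 2 against the others gave -0.007 (exact permutation p = 0.469) and number 3 gave -0.004 (exact permutation p = 0.691). Number 1 gave 0.020 with the mean over genes (exact permutation p = 0.0123) and 0.021 with DESeq2 size factors (exact permutation p = 0.0494). Leaving out 1 of the 12, added after seeing the data, gave 0.017 to 0.029, with exact permutation p from 0.0185 to 0.0741. Of 5505 values of named genes under the alternatives, 37 moved by more than the gene's SD over the 4 groups. A change of sign was looked for only in genes outside the others in 1 direction in all 4 groups, and 0 were found. Changes of sign in the other named genes were not counted.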

Other observations

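Genes encoded by the mitochondrial genome, which make subunits of the respiratory chain and the organelle's RNAs, had a median fitted difference of -0.22 over 17 tested genes, and 7 of them were below the others in all 4 groups, as were 3.96% of all tested genes. By group the median was -0.14 and -0.07 in 2iL with RAS present and deleted, and -0.05 and -0.47 in FA. The 12 tested genes of the Y chromosome had a median of 0.12, with 3 above in all 4 groups, as were 6.15% of all tested genes. Both sets are small, and neither difference was tested.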
